A study of Mus musculus with 16 samples.

Results

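Pyruvate dehydrogenase complex genes and the genes that switch the complex on and off were followed in mouse quadriceps muscle. The 10 genes were chosen by symbol: Pdha1, Pdhb and Dlat for the complex itself, Pdk1, Pdk2, Pdk3 and Pdk4 for its kinases, and Pdp1, Pdp2 and Pdpr for its phosphatases. Each symbol matched 1 row of the 45706 genes counted, and all 10 were among the 13792 genes with enough counts to be tested. Polyadenylated RNA was sequenced in 16 libraries, 8 of them from mice labelled as a skeletal-muscle knockout of Nampt (KO) and 8 from wild types (WT). NAMPT is the rate-limiting enzyme of the route that recycles nicotinamide to NAD, and the title of the study asks about NAD loss in muscle and ageing. The labels give the genotype and an RNA integrity number for each library. They give no age, sex, strain or treatment, do not name the promoter that drove the deletion, and do not say how many animals the samples came from, so each p-value reflects only how much these samples vary. In this bulk tissue, fewer cells of a type and less RNA per cell cannot be told apart.

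The pyruvate dehydrogenase complex sits in the mitochondrial matrix and turns pyruvate, NAD and coenzyme A into acetyl-CoA, carbon dioxide and NADH, the step at which carbon from glucose is committed to oxidation. Kinases of the PDK family phosphorylate the alpha subunit of its decarboxylase and so switch the complex off, while PDP phosphatases remove the phosphate and switch it on. In skeletal muscle PDK2 and PDK4 are the kinases best known for this, and Pdk4 transcription is known for its rise in fasting and fat use, through PPAR, FoxO and glucocorticoid receptors.

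Nampt, the targeted gene, had a lowest, median and highest value of 60.4, 74.7 and 88.7 CPM in KO and of 125.5, 141.1 and 161.1 CPM in WT. CPM are counts scaled to a common library size. Every KO library lay below every WT library (log2 fold change -0.95 ± 0.07 SE, KO at 51.9% of WT, exact two-sided permutation p = 0.000155, the smallest 8 against 8 can give). Totals ran from 16065394 to 51881258 estimated counts, and the RNA integrity number from 8.2 to 8.8. Muscle fibre markers were high in all libraries of both genotypes, with Myh4 between 59836 and 84322 CPM and Acta1 between 18451 and 28558 CPM. Libraries KO1, KO3, KO5 and KO8 stood apart. The sum of 5 RNAs that carry no poly(A) tail (Rn7s1, Rn7s2, Rn7sk, Rmrp and Rpph1) was 286.7 to 509.2 CPM there, 20.2 to 70.6 CPM in the other 4 KO libraries and 15.5 to 218.5 CPM in WT. Differences that change sign and relations that lose their call without these 4 libraries are given both ways.

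Upstream sequence is shown for 4 genes because the values below turn on them: Pdk4 and Pdk2, the main muscle kinases, of which Pdk4 varied far more between libraries, and Pdha1 and Pdhb, whose products form the decarboxylase and whose transcripts varied together. RefSeq promoter windows on GRCm38.p6, from 250 bases before to 50 after the annotated start, were found for 9 of the 10 genes, in 11 windows, and not for Pdp1. Each sequence is the stretch of the window that precedes every annotated start, 5′ to 3′ on the strand of the gene. Capitals mark matches, on either strand, to the CCAAT box (CCAAT), the GC box (GGGCGG) and the core of the hypoxia response element (ACGTG). All 4 genes lie on the minus strand.
Pdk4, chr6:5496310-5496528: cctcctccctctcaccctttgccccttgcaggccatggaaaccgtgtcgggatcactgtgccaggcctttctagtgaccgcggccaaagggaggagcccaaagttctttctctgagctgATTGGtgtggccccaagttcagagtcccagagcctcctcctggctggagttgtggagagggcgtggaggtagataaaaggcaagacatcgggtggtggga
Pdk2, chr11:95041372-95041621: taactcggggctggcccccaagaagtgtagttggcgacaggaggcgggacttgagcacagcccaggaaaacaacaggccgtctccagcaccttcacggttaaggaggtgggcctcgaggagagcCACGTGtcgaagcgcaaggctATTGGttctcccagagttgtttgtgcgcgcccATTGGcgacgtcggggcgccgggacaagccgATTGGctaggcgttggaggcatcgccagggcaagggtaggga
Pdha1, chrX:160138431-160138680: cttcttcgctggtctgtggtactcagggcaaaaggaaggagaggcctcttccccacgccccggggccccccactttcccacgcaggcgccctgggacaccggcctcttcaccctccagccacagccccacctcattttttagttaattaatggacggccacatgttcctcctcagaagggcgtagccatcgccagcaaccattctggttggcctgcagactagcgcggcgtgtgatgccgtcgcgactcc
Pdhb, chr14:8173026-8173242: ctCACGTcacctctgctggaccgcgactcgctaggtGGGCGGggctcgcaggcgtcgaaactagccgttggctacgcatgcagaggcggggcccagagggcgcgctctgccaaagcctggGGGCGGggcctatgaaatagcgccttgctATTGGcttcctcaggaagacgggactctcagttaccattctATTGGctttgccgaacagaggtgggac

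The Pdk4 stretch held 1 CCAAT match and no match to the other motifs in capitals. The Pdk2 stretch held 3 CCAAT matches and 2 ACGTG matches, the latter being the same palindrome read on each strand. No capitals fall in the Pdha1 stretch, whereas the Pdhb stretch held 2 CCAAT, 2 GC box and 1 ACGTG match. Over the 11 whole windows of 300 bases, CCAAT was found in 5, GGGCGG in 6 and ACGTG in 5. Among all 32851 RefSeq promoter windows of that length, 37.4%, 35.7% and 19.6% held them. The letters TGTTTAC (the FoxO core, in 3.65% of all windows), the element of estrogen-related receptors (TCAAGGTCA, 0.423%), the PPAR and RXR repeat (AGGTCA, any base, AGGTCA, 0.0396%) and the glucocorticoid receptor palindrome (GNACA and TGTNC with 3 bases between them, 0.475%) were in none of the 11 windows. The same held for TATAAA (13.6%) and for the NRF1 palindrome (GCGCA followed by TGCGC, 0.971%). CpG pairs numbered 12 in the Pdk4 window, more than in 60.4% of all windows, and 25 in the Pdk2 window shown, more than in 81.6%. The other Pdk2 window, chr11:95040826-95041125, held 13, more than in 62.1%. A match describes the letters only, and a missing match says nothing of elements outside the window.

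No gene of the complex or its regulators was called changed by the loss of Nampt. At an edgeR adjusted p under 0.05 the count was 0 of 10, where 0.0435% of all tested genes (6 of 13792) were called. DESeq2, which called 97 of the 24976 genes it gave a p-value (0.388%), and limma-voom also called 0 of the 10. That denominator includes genes to which DESeq2 gave no adjusted p and which could not be called, among them Pdk3 and Pdp2. At an unadjusted p under 0.05 the count was 1 of 10, Pdk1, against 9.57% of all tested genes. Of the 10 log2 fold changes 5 lay above 0 and 5 below, with a median of -0.000287 against 0.0045 over all tested genes. The 95% interval excluded a 1.5-fold change, up or down, for 7 of the 10 genes, and for 86.2% of all tested genes. The 3 others were Pdk3, Pdk4 and Pdp2.

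**Figure D1:**
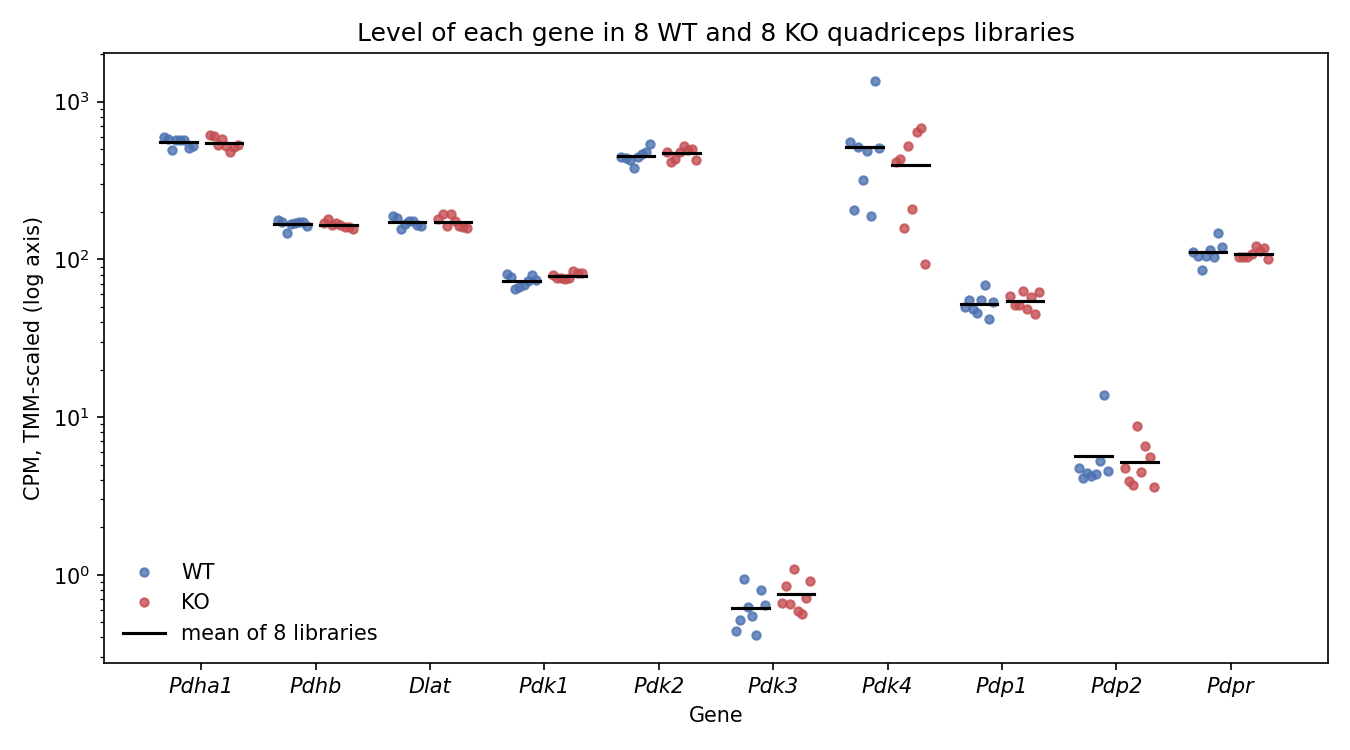
Level of each gene in every library, in CPM on a log axis, with WT in blue and KO in red. Each point is 1 library and each bar the mean of 8. Points of both genotypes overlap for all 10 genes, and Pdk4 is the most widely spread.

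The means of the 3 subunit genes were nearly the same in KO and WT. Pdha1 (ENSMUSG00000031299, chrX:160122209-160138413 on GRCm38, minus strand) encodes the alpha subunit of the decarboxylase, which carries the sites the kinases phosphorylate. Its lowest, median and highest values were 479.9, 531.0 and 612.0 CPM in KO and 496.7, 570.7 and 594.7 CPM in WT. The KO values reached both lower and higher than the WT values, with 5 of 8 inside the WT range. KO stood at 99.0% of WT (95% interval 91.4 to 107.3%, edgeR adjusted p = 0.967).

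Pdhb (ENSMUSG00000021748, chr14:8165996-8173025, minus strand) encodes the beta subunit of the same enzyme. It ran from 154.9 through a median of 164.8 to 180.9 CPM in KO, and from 146.8 through 171.0 to 178.1 CPM in WT. WT3 held the lowest value of all, below every other WT library, and 7 of 8 KO libraries were inside the WT range. KO was at 98.7% of WT (92.9 to 104.8%, edgeR adjusted p = 0.928). Its estimates were off a whole number by over 0.01 in 15 of 16 libraries, so some of its reads were shared with another feature and its level is less certain than those of the other 9 genes, whose estimates were whole.

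Dlat (ENSMUSG00000000168, chr9:50634633-50659780, minus strand) encodes the acetyltransferase core, on whose lipoyl arms the acetyl group travels to coenzyme A. Its values were 157.4, 168.9 and 193.7 CPM in KO (lowest, median, highest) and 155.1, 171.0 and 187.7 CPM in WT. The ranges overlapped almost fully, and KO was at 100.9% of WT (93.4 to 109.1%, edgeR adjusted p = 0.967).

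Per kb of exon, which allows genes to be compared, Pdha1 exceeded Pdhb in every library, although their proteins pair in equal number in the enzyme. The ratio averaged 3.41 ± 0.193 over the KO libraries and 3.40 ± 0.165 over the WT libraries (SD), between 3.04 and 3.73 over the 16 libraries. It fell to between 2.45 and 3.01 when the length of the longest transcript was used in place of the union of exons. Reads of Pdha1 may include some of Map3k15, a gene on the opposite strand that overlaps it and was counted at a mean of 2.29 CPM. The strand setting of the counting is not given in the sources used here.

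Among the kinases, only Pdk1 had an interval that left out no change, and by a small margin. Pdk1 (ENSMUSG00000006494, chr2:71873224-71903858, plus strand) encodes the kinase best known as a target of hypoxia-inducible factor. It measured 79.6, 75.7, 76.4, 75.1, 76.0, 84.0, 81.8 and 82.0 CPM in KO libraries 1 to 8, and 80.9, 76.7, 64.8, 66.8, 68.9, 72.7, 79.5 and 74.2 CPM in WT libraries 1 to 8. All 8 KO values were above the WT mean of 73.1 ± 5.88 CPM (SD, n = 8), yet 5 of 8 were still inside the WT range, which WT1 and WT7 extended upwards. KO was at 107.9% of WT (95% interval 100.7 to 115.7%, log2 fold change 0.11 ± 0.05 SE). The edgeR p was 0.0329 unadjusted and 0.468 adjusted over all tested genes, and the exact two-sided permutation p for this gene alone was 0.0329. Without KO1, KO3, KO5 and KO8 the log2 fold change was 0.12 and the unadjusted edgeR p 0.0923. Of all tested genes, 4.02% were higher in KO at an unadjusted p under 0.05. The difference did not pass the test. Of 10 other targets of hypoxia-inducible factor, 0 were called by edgeR and 1, Ankrd37, reached an unadjusted p under 0.05 (log2 fold change 0.44, adjusted p = 0.365). The most abundant of them, Egln1 and Vegfa, had log2 fold changes of -0.02 and -0.06.

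Pdk2 (ENSMUSG00000038967, chr11:95026258-95041354, minus strand) encodes the widely expressed kinase that responds to the NADH and acetyl-CoA made by the complex. Its lowest, median and highest values were 411.7, 482.0 and 521.7 CPM in KO and 378.9, 445.4 and 536.5 CPM in WT. All 8 KO libraries were inside the WT range, and the highest of 16 libraries was 1.42 times the lowest. A gene model on the opposite strand that overlaps it, Gm11513, was counted at 0 CPM. KO was at 103.8% of WT (94.6 to 114.0%, edgeR adjusted p = 0.839).

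Pdk3 (ENSMUSG00000035232, chrX:93764607-93832201, minus strand) encodes the kinase least known from muscle and was barely present. Its 10 to 52 counts per library gave 0.563 to 1.09 CPM in KO, with a median of 0.684, and 0.416 to 0.941 CPM in WT, with a median of 0.588. KO values overlapped WT values in 7 of 8 libraries. The log2 fold change was 0.24 ± 0.19 SE (edgeR adjusted p = 0.752), and at this depth its interval, 88.9 to 156.5% of WT, did not exclude a 1.5-fold rise.

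Pdk4 (ENSMUSG00000019577, chr6:5483351-5496309, minus strand) encodes the kinase whose transcript is induced in fasted muscle, and it varied far more than any other gene of the group. It measured 412.9, 435.7, 158.6, 525.5, 208.6, 644.1, 679.3 and 92.9 CPM in KO libraries 1 to 8. In WT libraries 1 to 8 it measured 555.0, 205.7, 514.5, 320.8, 487.4, 187.6, 1358 and 505.7 CPM. Each genotype held both high and low libraries: KO3, KO5 and KO8 were low in KO, WT2 and WT6 were low in WT, and WT7 stood alone at the top. The highest value was 14.6 times the lowest. The KO libraries averaged 394.7 ± 221.6 CPM and the WT libraries 516.8 ± 369.0 CPM (SD, n = 8 each), with 6 of 8 KO libraries inside the WT range. The log2 fold change was -0.39 ± 0.42 SE (edgeR adjusted p = 0.821, exact permutation p = 0.428), and the interval, 41.6 to 140.1% of WT, left changes in either direction possible.

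The Pdk4 difference depended on a few libraries. Without WT7 its log2 fold change was -0.01, and without KO1, KO3, KO5 and KO8 it was 0.14, neither being called by edgeR. Those 4 KO libraries, high in RNAs without a poly(A) tail, had Pdk4 at 92.9 to 412.9 CPM, and the other 4 KO libraries at 435.7 to 679.3 CPM. In WT the 2 libraries with the most such RNA, WT8 at 218.5 and WT2 at 130.4 CPM, had Pdk4 at 505.7 and 205.7 CPM, and WT6, lowest in Pdk4, had 31.7 CPM of it. Its part in the Pdk4 values was not tested further.

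**Figure D2:**
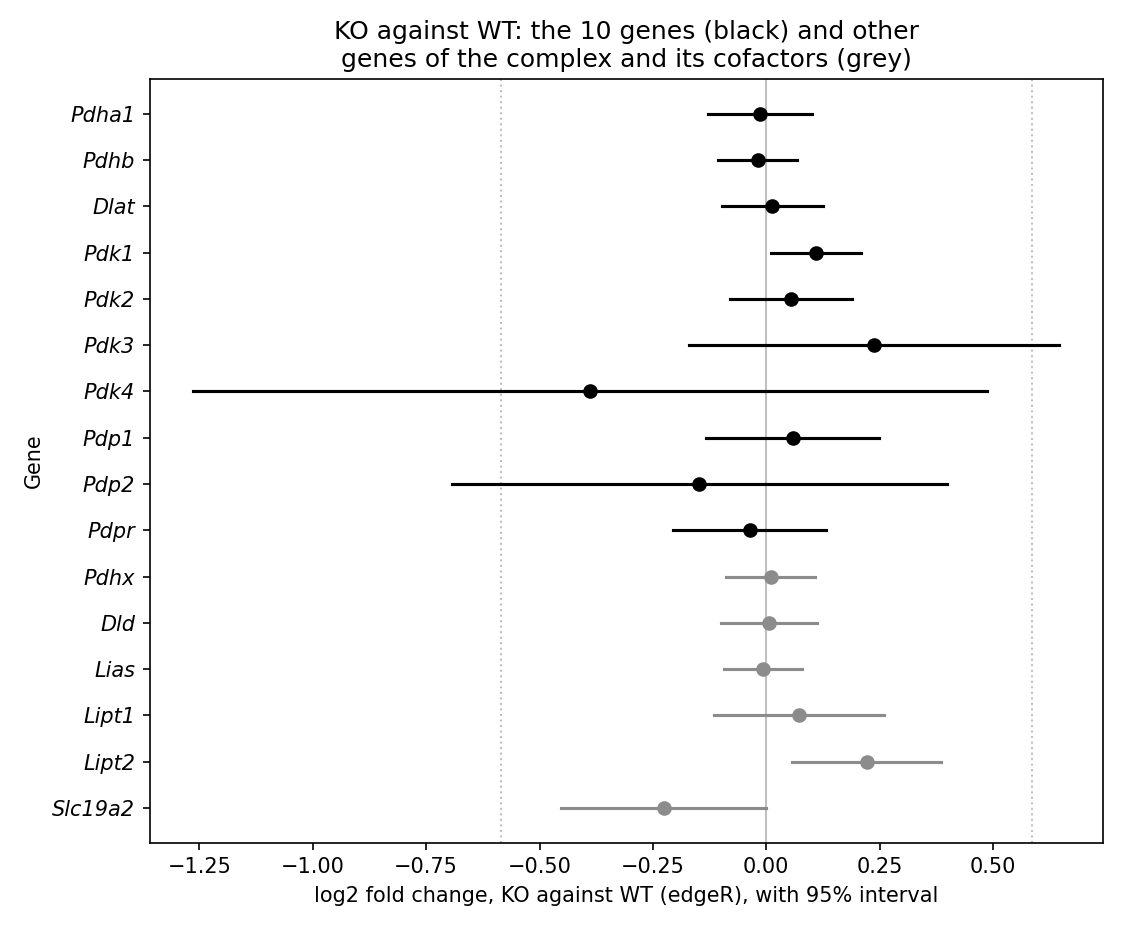
Log2 fold change of KO against WT from edgeR with its 95% interval, for the 10 genes in black and for other genes of the complex and its cofactors in grey. Dotted lines mark a 1.5-fold change in either direction, and the Pdk4 interval, from -1.26 to 0.49, is the widest drawn.

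The phosphatase genes did not differ beyond the spread between libraries. Pdp1 (ENSMUSG00000049225, chr4:11958184-11966452, minus strand) encodes the calcium-stimulated catalytic subunit known from muscle. Its lowest, median and highest values were 45.3, 54.5 and 62.7 CPM in KO and 42.0, 51.9 and 69.2 CPM in WT, with every KO library inside the WT range. KO was at 104.1% of WT (91.3 to 118.8%, edgeR adjusted p = 0.891).

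Pdp2 (ENSMUSG00000048371, chr8:104591451-104599026, plus strand) encodes the other catalytic subunit, known from liver and fat and for its response to insulin. It measured 4.73, 3.90, 3.71, 8.79, 4.47, 6.52, 5.57 and 3.57 CPM in KO libraries 1 to 8 and 4.74, 4.12, 4.43, 4.25, 4.36, 5.24, 13.7 and 4.53 CPM in WT libraries 1 to 8. WT7 was again far above the rest, and the other 7 WT libraries lay within 4.12 to 5.24 CPM. The log2 fold change of -0.15 ± 0.26 SE (edgeR adjusted p = 0.906) turned to 0.20 without WT7 and to 0.12 without KO1, KO3, KO5 and KO8.

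Pdpr (ENSMUSG00000033624, chr8:111094630-111137074, plus strand) encodes the regulatory subunit that restrains the phosphatase. The overlapping 9430091E24Rik, on the opposite strand, was counted at a mean of 0.446 CPM. Pdpr ran from 100.7 through a median of 106.1 to 121.3 CPM in KO and from 85.3 through 108.7 to 147.1 CPM in WT. WT libraries were spread more widely, from WT3 at the bottom to WT7 at the top, and all 8 KO libraries were inside their range. KO was at 97.5% of WT (86.7 to 109.6%, edgeR adjusted p = 0.928), with a log2 fold change of -0.04 that became 0.03 without WT7.

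Ordered by CPM per kb of exon over the 16 libraries, the genes fell into clear tiers. Pdha1 (147.2 ± 11.0, SD, n = 16), Pdk2 (145.7 ± 13.4) and Pdk4 (129.8 ± 85.6) led. Pdha1 was above Pdk2 in 10 of 16 libraries and Pdk2 above Pdk4 in 11, so this top order was within their spread, and with longest-transcript lengths Pdk2 came before Pdha1 (205.2 against 193.0). Pdk4 exceeded Pdhb (43.2 ± 2.21) in 15 libraries. Dlat (35.3 ± 2.58) and Pdpr (21.9 ± 2.63) followed, each below its predecessor in all 16. Pdp1 (11.9 ± 1.61) was above Pdk1 (9.76 ± 0.710) in 14 libraries, an order that also turned with longest-transcript lengths (12.7 against 14.6). Pdp2 (0.951 ± 0.449) and Pdk3 (0.267 ± 0.0739) closed the order in every library.

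Most kinase transcripts came from Pdk2 and Pdk4. On the scale of CPM per kb, Pdk2 made up 57.6 ± 13.6% of the 4 kinases in KO libraries and 51.5 ± 13.2% in WT libraries (SD, n = 8 each). Pdk4 made up 38.3 ± 14.7% and 45.0 ± 14.1%, between 15.3% in KO8 and 70.4% in WT7. Across libraries Pdk2 itself varied 1.42-fold and Pdk4 14.6-fold. Pdk1 gave 3.97 ± 1.12% in KO and 3.40 ± 0.938% in WT, and Pdk3 gave 0.116 ± 0.0451% and 0.0846 ± 0.0252%. Pdk4 exceeded Pdk2 in 5 of 16 libraries (KO6, KO7, WT1, WT3 and WT7), but with longest-transcript lengths in WT7 alone, where the mean Pdk4 shares became 31.2% in KO and 37.4% in WT. Among the phosphatase genes Pdpr gave 62.5 ± 3.88% in KO and 63.5 ± 4.63% in WT, Pdp1 34.9 ± 3.78% and 33.7 ± 5.50%, and Pdp2 2.59 ± 0.778% and 2.79 ± 1.27%. The summed kinases were 21.1 ± 6.17 times the summed catalytic phosphatase subunits in KO and 24.3 ± 10.2 times in WT, from 12.0 to 46.8 over all libraries. This ratio concerns transcripts and not enzyme activity.

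**Figure D3:**
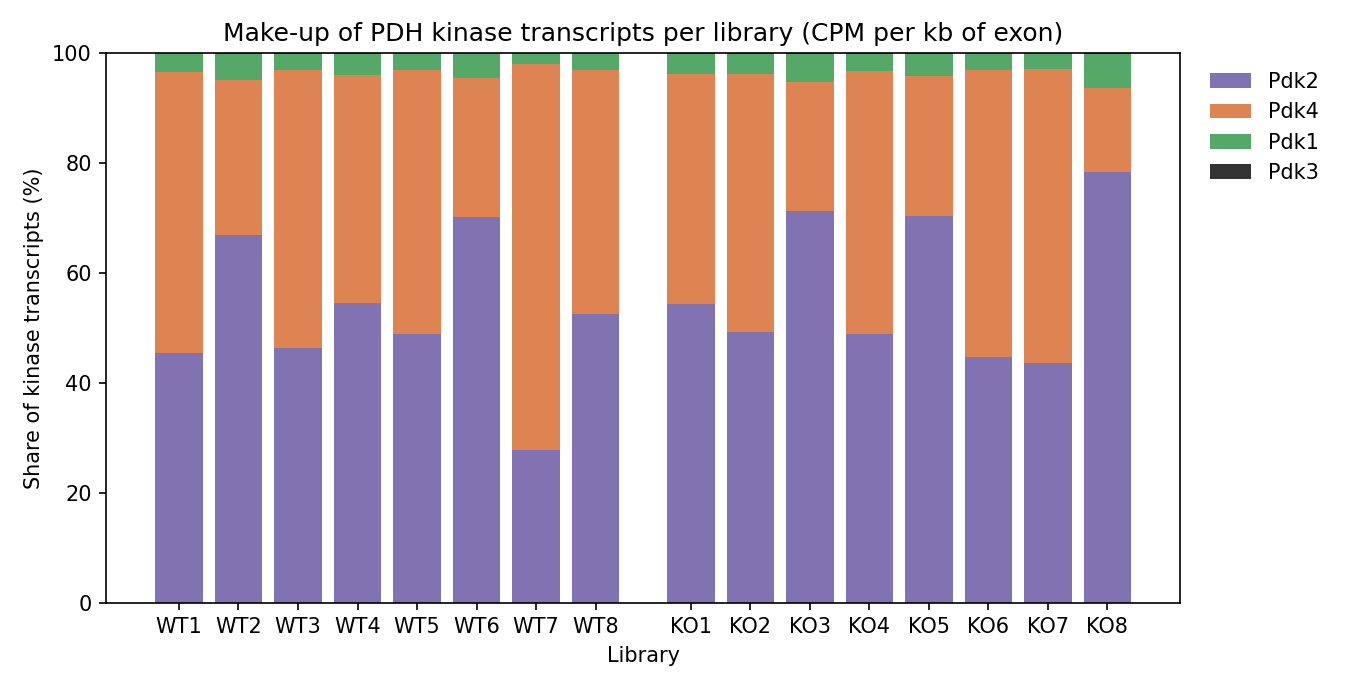
Share of each kinase gene among the 4 kinase genes in each library, in percent of summed CPM per kb of exon. Each bar is 1 library. Pdk4 (orange) ranges from 15.3% in KO8 to 70.4% in WT7, and Pdk3, at most 0.206%, is too small to be seen.

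Pdk4 and Pdp2 varied most between libraries of the same genotype. The SD of log2 CPM within genotypes was 0.977 for Pdk4, where the median of the 6944 genes with a mean of at least 10 CPM was 0.11. Pdk4 would rank 16 among these genes, above 99.8% of them. Pdp2 had an SD of 0.480, above 98.5% of these genes, although its own mean of 5.41 CPM is below that limit and its lowest count was 64. Pdk3, with its low counts, had 0.214, Pdp1 0.195, Pdpr 0.172 and Pdk2 0.135. Dlat (0.107), Pdk1 (0.0932) and Pdhb (0.0770) were below the median, and Pdha1 (0.111) stood at it.

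**Figure D4:**
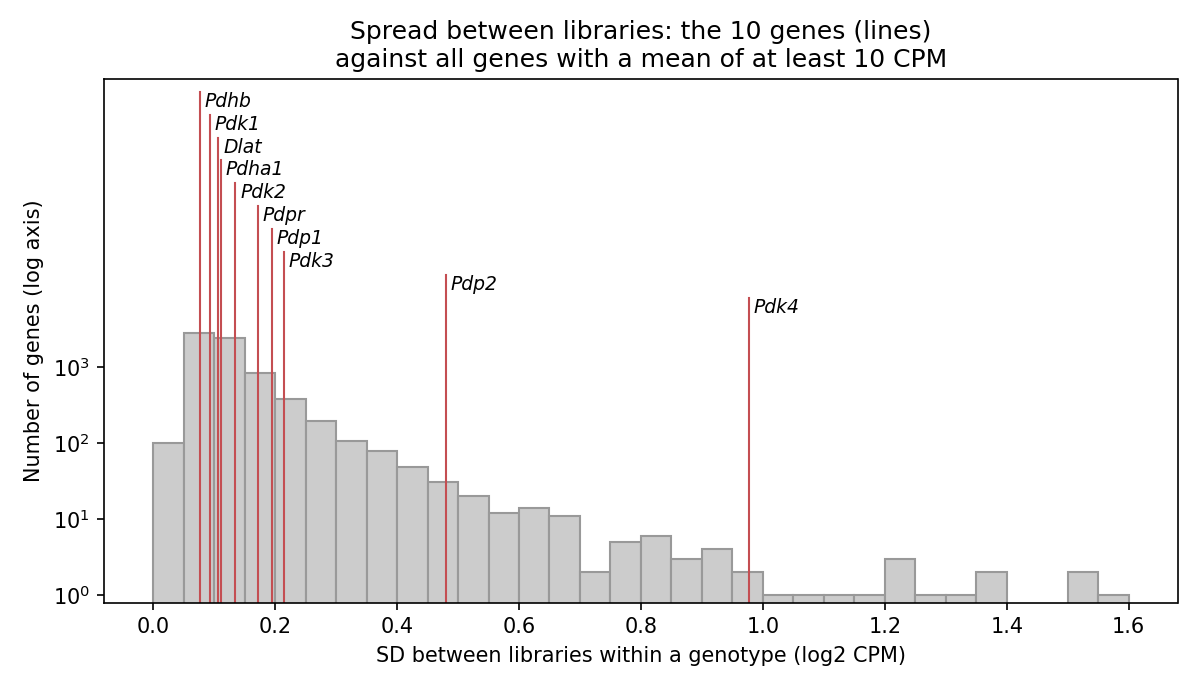
SD of log2 CPM between libraries within a genotype, in bins over genes with a mean of at least 10 CPM (grey, number of genes on a log axis), with the 10 genes as red lines whose heights serve only to separate the names. Pdk4 lies at 0.977 and Pdp2 at 0.480, and the other 8 lie at or below 0.214.

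The transcripts of the 3 subunits varied together from library to library. After each genotype's mean was subtracted from log2 CPM, Pdhb and Dlat had Pearson r = 0.820 and Spearman rho = 0.874 over the 16 libraries (permutation p of r, adjusted over 18 pairs, 0.00036). Pdha1 and Dlat had r = 0.821 and rho = 0.847 (adjusted permutation p = 0.00168), and Pdha1 and Pdhb had r = 0.720 and rho = 0.694 (adjusted permutation p = 0.00309). The relations were similar in size within KO (r = 0.883, 0.782 and 0.773) and within WT (0.808, 0.887 and 0.700). Without the 2 libraries farthest from the median of the first gene r was 0.803, 0.857 and 0.766. Without KO1, KO3, KO5 and KO8 all 3 still passed (adjusted permutation p = 0.00936, 0.00936 and 0.0163, n = 12). The libraries differ in depth and composition, which all genes in them share.

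Pdk4 varied with several genes of fatty acid use. Its relation with Ucp3, a mitochondrial carrier induced by fatty acids, had r = 0.876 and rho = 0.900 (adjusted permutation p = 0.00054), with r = 0.875 in KO and 0.882 in WT. Plin5, a lipid droplet protein, had r = 0.786 and rho = 0.724 (adjusted permutation p = 0.00216), with r = 0.763 in KO and 0.818 in WT. Angptl4, a lipoprotein lipase inhibitor, had r = 0.699 and rho = 0.738 (adjusted permutation p = 0.00681), with r = 0.596 in KO and 0.83 in WT. Within KO alone neither Plin5 nor Angptl4 passed (adjusted permutation p = 0.0975 and 0.239), and within WT alone both did (adjusted permutation p = 0.0493 and 0.0418). Cpt1a (r = 0.623, rho = 0.597, adjusted permutation p = 0.0351) and Klf15 (0.590, 0.497, adjusted permutation p = 0.0472) passed by r but not by rho, whose adjusted p was 0.0504 and 0.121. Pairs of Pdk4 with Foxo1 (r = 0.523, rho = 0.432, adjusted permutation p = 0.0540), Ppargc1a (0.484, 0.391, 0.0769) and Fbxo32 (0.420, 0.344, 0.161) did not pass, nor did Fkbp5, the fibre gene Myh7 (r = 0.136) or the adipocyte gene Adipoq (r = -0.0892).

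These relations of Pdk4 rested in part on a few libraries. Leaving out its 2 extremes by distance from the median, KO8 and WT6, r was 0.812 for Ucp3, 0.791 for Plin5 and 0.651 for Angptl4, and these 3 still passed. Without WT7 Angptl4 fell to r = 0.581 (adjusted permutation p = 0.0933), and Ppargc1a to r = 0.142, whereas Ucp3 and Plin5 still passed (r = 0.836 and 0.716). Without KO1, KO3, KO5 and KO8 no pair with Pdk4 passed, and Ucp3 had r = 0.778 and rho = 0.476 (adjusted permutation p of r = 0.0547, n = 12). WT7 had the highest value of all libraries in 18 of 22 tested PPAR targets (81.8%), in 8 of 18 FoxO and glucocorticoid responsive genes (44.4%) and in 3 of the 10 genes described here, against 9.30% of all tested genes.

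**Figure D5:**
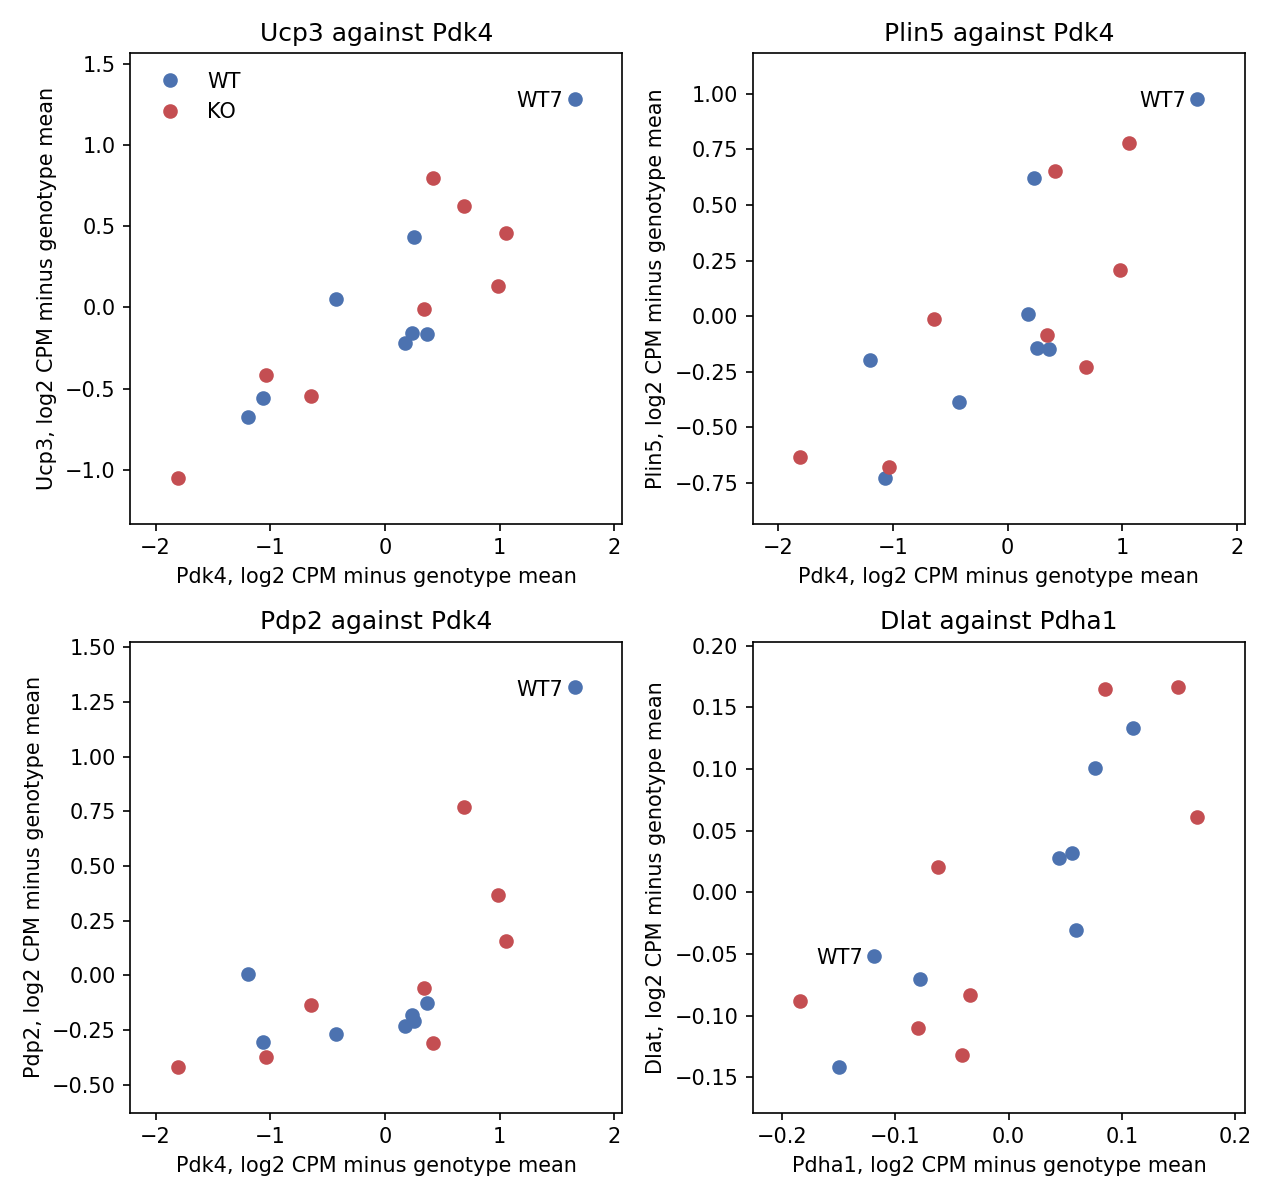
Log2 CPM after subtraction of the genotype mean, 1 point per library (WT blue, KO red), for Ucp3, Plin5 and Pdp2 against Pdk4 and for Dlat against Pdha1. Axes differ in range between panels. WT7 is the top right point in each panel with Pdk4, while the Pdha1 and Dlat panel (r = 0.821) has it inside the cloud.

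Among pairs of kinase and phosphatase genes, the 3 in the family of 18 did not pass. Pdk4 and Pdk2 had r = 0.364 (rho = 0.356, adjusted permutation p = 0.224), Pdk4 and Pdp1 r = -0.466 (rho = -0.421, adjusted permutation p = 0.113), and Pdk2 and Pdp1 r = 0.0677 (rho = -0.0676, adjusted permutation p = 0.814). Over all 45 pairs of the 10 genes, a family added after the data were seen, 4 passed by r: the 3 subunit pairs and Pdk4 with Pdp2 (r = 0.695, rho = 0.679, adjusted permutation p = 0.0343). The last had r = 0.713 within KO, 0.707 within WT and 0.580 without WT7. Without KO1, KO3, KO5 and KO8 it had r = 0.646 and rho = 0.434. Over all libraries it missed the threshold by rho (adjusted permutation p = 0.0568). By rho 5 pairs passed, among them Pdk2 with Pdp2 (rho = 0.729, r = 0.432) and Pdk2 with Pdpr (rho = 0.691, r = 0.571).

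Of the 6743 named genes with a mean of at least 10 CPM, those most like Pdk4 over the 16 libraries, by Spearman rho of genotype-centred log2 CPM, were Zfp280d (0.929), Pank1 (0.915), Ucp3 (0.900), Cmtm4 (0.897) and Fgf1 (0.856). Pank1 encodes a pantothenate kinase, the first enzyme of coenzyme A synthesis. Those most like Pdha1, the gene with the highest level per kb, were Cyb5r4 (0.921), Slc47a1 (0.900), Tspan13 (0.897), Mrpl12 (0.876) and Pyurf (0.874). These were picked as the highest of many and carry no test.

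Other genes needed to build the complex and supply its cofactors were not called. Of 9 listed, 8 were tested and 0 called by edgeR, with 3 at an unadjusted p under 0.05. Pdhx, which tethers the shared dihydrolipoamide dehydrogenase to the core, measured 63.7 ± 3.68 CPM in KO libraries and 63.3 ± 4.20 CPM in WT libraries (SD, n = 8 each). Dld, that dehydrogenase and the subunit that reduces NAD, measured 190.2 ± 13.3 and 189.5 ± 13.0 CPM. Both had a log2 fold change of 0.01. For lipoic acid, Lias, its synthase, was at -0.01 on the log2 scale, Lipt1, which loads it onto the core, at 0.07 and Lipt2, which transfers the octanoyl precursor, at 0.22 (edgeR adjusted p = 0.338). For the thiamine cofactor, the plasma membrane transporter Slc19a2 was at -0.23 (edgeR adjusted p = 0.520). The list's median was -0.000964, against 0.0045 over all tested genes.

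Genes that bring pyruvate to the complex or lead it elsewhere were not called either. Of 13 tested, edgeR called 0, and 2 reached an unadjusted p under 0.05, both lower in KO: Gpt2, the mitochondrial alanine transaminase (log2 fold change -0.36, adjusted p = 0.307), and Pcx, pyruvate carboxylase (-0.32, adjusted p = 0.479). The 2 most abundant, Pkm and Ldha, had log2 fold changes of 0.08 and -0.00. The sister dehydrogenases of other 2-oxo acids use the same Dld. Of 9 genes for them and for their kinase and phosphatase, edgeR called 0, with 0 at an unadjusted p under 0.05. Ogdh was at 0.07 and Dlst at -0.00.

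Genes known to act on Pdk4, or to respond with it, likewise had no calls. Of 22 tested PPAR targets, edgeR called 0 and 0 reached an unadjusted p under 0.05, with 19 below 0, where 48.2% of all tested genes were, and a median log2 fold change of -0.04. WT7 was the highest library in 18 of these 22 genes, and without it 10 of 22 were below 0. Without KO1, KO3, KO5 and KO8 6 of 22 were below 0. Angptl4 measured 2.64 ± 1.36 CPM in KO and 5.13 ± 6.49 CPM in WT libraries (SD, n = 8 each, adjusted p = 0.561 by edgeR). WT7 alone was at 20.95 CPM, and the other 7 WT libraries averaged 2.87 ± 1.21 CPM. Ucp3 was at -0.48 (adjusted p = 0.633) and at -0.20 without WT7, while the abundant Lpl and Hadha were at -0.00 and -0.03. FoxO and glucocorticoid responsive genes had 0 of 18 called and 0 at an unadjusted p under 0.05 by edgeR, with Fbxo32 at -0.04 and Trim63 at -0.19. Of 22 transcription factors and coactivators edgeR called 0, and 5 reached an unadjusted p under 0.05, a larger share than the 9.57% of all tested genes. The 5 did not pass the adjusted test. Those with negative log2 fold changes were Rxrg (-0.25, adjusted p = 0.166), Rxra (-0.16, adjusted p = 0.292), Esrra (-0.13, adjusted p = 0.385) and Ppard (-0.14, adjusted p = 0.433), whose products bind DNA as nuclear receptors. The positive one was Ppargc1b (0.19, adjusted p = 0.385), a coactivator.

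Markers of cell and fibre types were looked at beside these values. Of 9 tested adipocyte markers edgeR called 0, with 0 at an unadjusted p under 0.05, and their summed level ran from 141.8 to 278.8 CPM in KO and from 152.8 to 250.3 CPM in WT. Of 15 slow and fast fibre markers edgeR called 0, with 9 log2 fold changes above 0 and a median of 0.18. The 7 slow markers had values from 0.18 (Atp2a2) to 0.36 (Tnnt1), all above 0, with 0 at an unadjusted p under 0.05. The 6 genes set as fast markers had values from -0.09 to -0.03, all below 0, with 1, Tnni2, at an unadjusted p under 0.05 (adjusted p = 0.497). Myh2 and Myh1, fast myosin genes of the list that were in neither subset, went the other way, at 0.27 and 0.13. These signs were the same without WT7 and without KO1, KO3, KO5 and KO8. Of the 6 muscle fibre markers edgeR called 0 and 0 reached an unadjusted p under 0.05. The part of fibre or cell make-up in the spread of Pdk4 and Pdp2 was not tested beyond the pairs with Myh7 and Adipoq.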

How the data were processed

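RNA of quadriceps muscle from 8 KO and 8 WT samples was extracted with Trizol and RNeasy columns, and its polyadenylated part was sequenced with paired 52-bp reads on a NovaSeq, per the labels' protocols. The submitters' processing notes name bcl2fastq 4.0.3, STAR and Salmon, on GRCm38. Which STAR, Salmon and gene annotation releases were used, and whether counting used strand, is not given in the sources used here. Values that the authors deposited are estimated counts per gene, not scaled to depth. Of these, 11.1% were not whole, and all were rounded before any count model.

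KO and WT were compared with edgeR 4.0.16 (R 4.3.3): TMM scaling, default low-count filter, quasi-likelihood F test with no covariate, Benjamini-Hochberg adjustment over 13792 genes. The genes filtered out held 0.0705% of counts. A gene was called at an adjusted p under 0.05. Intervals are 95%. DESeq2 1.42.0 and limma 3.58.1 were alternatives, with other scalings, filters, covariates and left-out libraries. For single genes, log2(CPM + 0.5) was also tested by exact permutation, two-sided, with all 12870 assignments. CPM were computed here from the deposited counts. Relations used log2(CPM + 0.5) centred by genotype, 100000 permutations within genotype and adjustment over 18 pairs. Gene lengths came from GENCODE M21 (union of exons). The edgeR step was tested on simulated data for KO against WT over 13673 genes. It recovered 56% of genes changed 1.25-fold, 84% at 1.5-fold, 92% at 2-fold and 100% at 3-fold. Of its calls 1.78% were unchanged genes. The genes changed in the simulation all had a mean of at least 1 CPM. They were more numerous than the 6 genes called in the data, which makes the adjusted threshold easier to pass. The rates are averages over genes and do not give the power for Pdk3, Pdk4 or Pdp2.

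Libraries of a genotype differed beyond sampling noise (chi-square per degree of freedom at least 8.09 in KO and 9.42 in WT), and none was a duplicate. The number of count columns that matched no sample was 0.

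The 10 genes, the gene lists and the pairs were chosen with earlier results of these data known. Other genes were named by rule: every tested gene of the complex list, every gene of a pair, in each other list those called, those at an unadjusted p under 0.05 and the 2 highest in CPM, and for Pdk4 and Pdha1 the 5 most alike. The RNAs without a poly(A) tail, the relations and list counts without WT7 or without KO1, KO3, KO5 and KO8, and the family of 45 pairs were chosen after seeing the data. Some genes that the rule takes are left out of the text, and some fibre markers outside the rule are named.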

Additional observations from a re-analysis of the deposited data

Results flagged for a closer look

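In each genotype the highest and lowest library of each of the 10 genes was compared with the range of its group, a check that chance trips in about 1 of 20 groups. It was tripped in 3 of 20 groups. Pdk4 in WT7, at 1358 CPM, was separated from the next WT library, at 555.0 CPM, by a gap that was 0.686 of the whole WT range. Pdp2 in WT7, at 13.7 CPM, was separated from the next, at 5.24 CPM, by 0.883 of the range. Pdhb in WT3, at 146.8 CPM, lay below the next lowest, at 163.5 CPM, by 0.534 of the range, just past the critical value for 8 libraries. WT3 was the deepest library, with 51881258 estimated counts, and WT7 held 38032642.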

How the results depend on the processing

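The number of the 10 genes called stayed at 0 in all 25 alternatives to the edgeR comparison, while the number called among all genes went from 6 to between 2 (RLE size factors) and 97 (DESeq2). It was 3 with no low-count filter, 4 with RNA integrity as a covariate, 2 without KO1, KO3, KO5 and KO8, and 2 to 8 with single libraries left out. With a minimum mean of 1 CPM Pdk3 was not tested. Pdk1 had an unadjusted p under 0.05 in 18 of the 25, with adjusted p from 0.307 to 0.649. Under these alternatives 239 values of single genes kept their sign and call and 10 changed sign. Leaving out 1 library at a time gave log2 fold changes of -0.55 to -0.01 for Pdk4, -0.30 to 0.20 for Pdp2, -0.084 to 0.031 for Pdpr, -0.037 to 0.012 for Pdha1, -0.011 to 0.033 for Dlat and 0.087 to 0.13 for Pdk1. Without KO1, KO3, KO5 and KO8 Pdk4 was at 0.14 and Pdp2 at 0.12, and Dlat was at -0.0013 with RNA integrity as a covariate. The cause of these changes of sign was not tested. Of the values of the 18 relations 83 kept their call, 20 lost it and 5 changed sign, none of the 5 in a relation that had passed: Pdk4 with Adipoq was 0.294 within WT and 0.222 without KO1, KO3, KO5 and KO8, Pdk4 with Myh7 was -0.0143 without WT7, and Pdk2 with Pdp1 was -0.205 within KO and -0.135 without the 2 farthest libraries.

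The labels place same-numbered KO and WT libraries next to each other in sample order but do not say whether they were paired. Their deviations correlated between -0.112 and 0.260, over 0.1 in 3 of 8 pairs, and 2 of 8 KO libraries correlated best with their own number. With 8 pairs, these correlations cannot decide whether the libraries were paired. With the replicate number as a block 2 genes were called in place of 6, 0 of them among the 10, and Pdk4 was at -0.42, Pdk1 at 0.11, Pdp2 at -0.09 and Pdpr at -0.02.

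Depth limited Pdk3, with 10 to 52 counts per library. Pdk4 had at least 2548 and Pdp2 at least 64 counts in each library, and their wide intervals came with the spread between libraries given above.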
